A study of Gallus gallus with 9 samples.

Results

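Bone morphogenetic proteins (BMPs) and transforming growth factors beta (TGF-beta) are secreted ligands of a single protein family. They bind pairs of type I and type II receptor kinases, which phosphorylate Smad proteins that then enter the nucleus and alter transcription. In the eye these signals pattern the developing retina and ciliary margin, and in chicks BMP genes of the retinal pigment epithelium are known to respond to the sign of defocus, while TGF-beta isoforms are studied for their control of scleral matrix. The genes described here are 5 ligands (BMP2, BMP4, BMP7, TGFB2 and TGFB3) and 3 receptors (the type I receptors BMPR1A and BMPR1B and the type II receptor BMPR2). They were chosen by symbol: all chicken probe sets whose platform symbol is 1 of these 8, which gave 15 of the 37693 chicken probe sets on the array.

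RNA abundance was measured on Affymetrix Chicken Genome arrays in the amacrine cell layer, cut by laser capture from chick retina. The samples were 3 from birds that wore a minus lens (-7 D, which stimulates eye growth), 3 from birds that wore a plus lens (7 D, which suppresses it) and 3 from untreated control birds of the same age. Lenses were worn over 1 eye for 24 h, and birds were housed at 500 lux with lights on for 12 h daily. The minus lens group was taken from the sample titles, because another label of those samples names both lens signs. Strain, sex and age in days are not given in the sources used here. The labels count 3 birds and 3 separate samples a condition without tying one to the other, so each p-value weighs a difference against sample spread that could be partly technical. Each array reads a gene by 1 or more probe sets. A probe set ending in _a_at matches alternative transcripts of a gene, and one ending in _s_at can match transcripts of more than 1 gene. Values are log2 of the authors' GCRMA intensity, a background-corrected and normalised brightness. In bulk tissue, fewer cells of a type and less RNA per cell cannot be told apart.

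One array differed from the remaining 8: over tested probe sets, minus lens replicate 3 correlated with them at a mean Pearson r of 0.953, against 0.971 to 0.975 for the rest. Of the amacrine cell markers listed, 20 of the 23 with a probe set were measured, and TH, DDC and NEUROD1 lay below the floor described next. Over all genes with a probe set, 7130 of 13008 were measured. Markers of neighbouring cells were measured too, with 11 of 12 for bipolar cells and 14 of 20 for Müller glia. Ganglion cells (10 of 17) and horizontal cells (3 of 5) were near the share of all genes. Counts were 6 of 17 for retinal pigment epithelium and 6 of 15 for choroid, sclera and cartilage. They were 5 of 22 for endothelial cells, pericytes and blood and 3 of 21 for photoreceptors.

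Signal above the floor was found for 5 of the 8 genes. The floor was set at log2 4, to be reached on at least 3 of the 9 arrays, because GCRMA compresses dim probe sets into a narrow range. It was reached by 5 of the 15 probe sets (33.3%), against 12975 of 37693 chicken probe sets (34.4%), so the share was near that of the whole array. The genes were BMP2, BMP7, TGFB2, TGFB3 and the receptor BMPR1B, each through 1 probe set. BMP4, BMPR1A and BMPR2 had none. All 9 arrays were at or above the floor for BMP7, TGFB2, TGFB3 and BMPR1B, and 8 were for BMP2. With the floor at log2 5 the count was 3 probe sets, and at log2 6 it was 2, those of TGFB2 and TGFB3.

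No ligand or receptor passed the test in any comparison of lens groups. Differences were tested with limma over all 12975 probe sets, with Benjamini-Hochberg adjustment and a threshold of 0.05. Among the 5 tested, 0 passed for the minus lens against control, where 0.00771% of all probe sets did, 0 for the plus lens against control (0.00771% of all) and 0 for the minus lens against the plus lens (0.0154% of all). An F test for any difference among the 3 groups also gave 0 of 5 (0.0154% of all), with unadjusted p of 0.0821 for BMP7 and 0.322 to 0.553 for the other 4 (5.29% of all probe sets were under 0.05). At an unadjusted p under 0.05, 1 of the 5 (BMP7) differed between minus lens and control (7.03% of all probe sets), 0 between plus lens and control (1.95%) and 0 between the lenses (7.08%). The arrays of the 2 groups overlapped for all 5 in each comparison. Over all probe sets they did not overlap for 10.0%, 6.67% and 9.68% in the same 3 comparisons. Among only 5 probe sets a count of 0 does not depart from such shares. The median log2 difference over the 5 genes was 0.01, 0.0027 and -0.32 in those comparisons, against -0.03, 0.0015 and -0.02 over 7130 genes. The last of these medians was -0.01 without plus lens replicate 2 and 0.02 over all 15 probe sets, and the first was -0.17 without minus lens replicate 3.

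**Figure D1:**
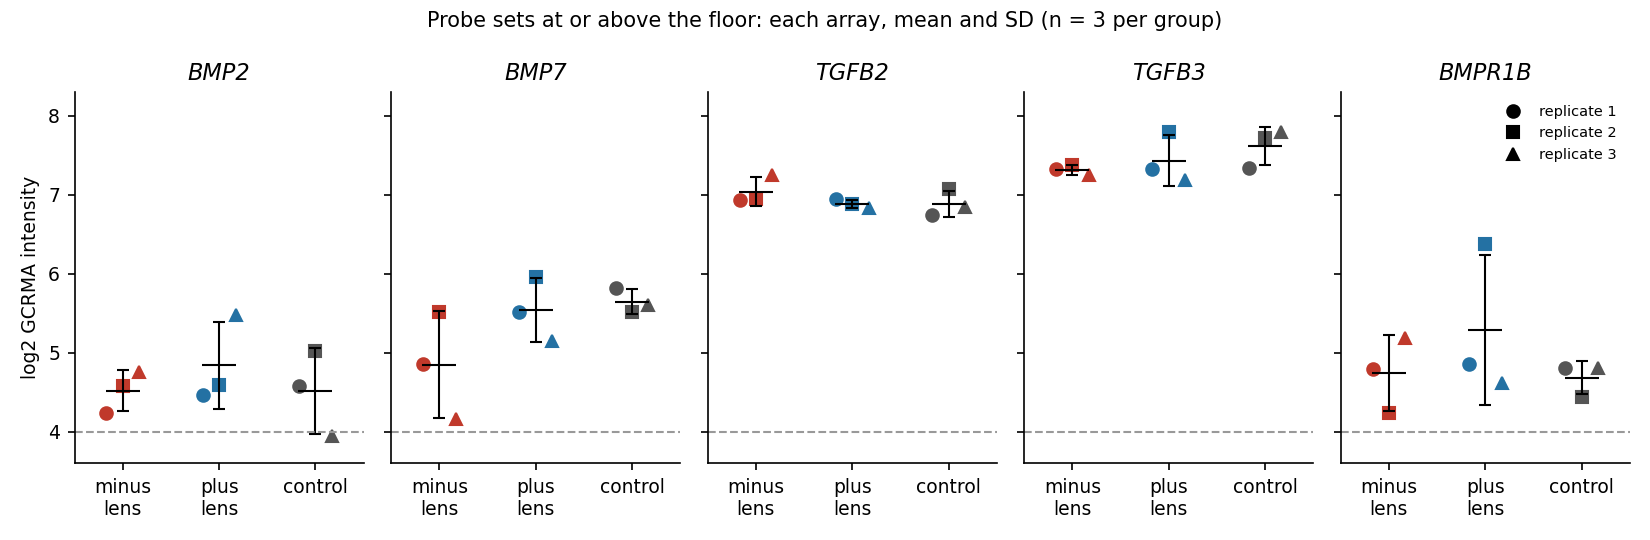
Log2 GCRMA intensity (vertical axis) of the 5 probe sets that reached the floor, on each of 3 minus lens, 3 plus lens and 3 control arrays. Symbols mark the replicate number, horizontal bars and whiskers the mean and SD of each group, and the dashed line the floor at log2 4. The groups overlap in every panel, BMP7 is lowest on minus lens replicate 3 (4.16) and BMPR1B is highest on plus lens replicate 2 (6.37).

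BMP2, a ligand that signals through BMPR1A and BMPR1B and is a known bone and cartilage inducer, was read just above the floor by 1 of its 3 probe sets. It stood at log2 4.23, 4.58 and 4.75 under the minus lens, 4.46, 4.59 and 5.47 under the plus lens and 4.58, 5.02 and 3.94 in controls. All minus lens values lay inside the range of the controls, and the highest value of all was on plus lens replicate 3. The means were 4.52 ± 0.26 with the minus lens, 4.84 ± 0.55 with the plus lens and 4.51 ± 0.54 in controls (SD, n = 3 each). Between minus lens and control the difference was log2 0.01 (SE 0.33, 95% confidence interval -0.75 to 0.77, limma adjusted p = 0.998), and -0.10 without minus lens replicate 3. The plus lens differed from control by 0.33 (SE 0.33, interval -0.43 to 1.09, limma adjusted p = 0.9998) and by 0.02 without plus lens replicate 3 or 0.04 without control replicate 3. The minus lens differed from the plus lens by -0.32 (SE 0.33, interval -1.08 to 0.44, limma adjusted p = 0.826), and by -0.01 without that array. Relative to control, the minus lens interval holds changes of up to 1.71-fold upward and 1.68-fold downward. The plus lens interval holds changes of up to 2.13-fold upward and 1.35-fold downward. The other 2 BMP2 probe sets lay below the floor on all 9 arrays, at log2 2.60 to 2.73 and 2.32 to 2.38.

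BMP7, a ligand needed for early eye formation in mice, showed the lowest minus lens mean relative to controls among the 5, without passing the test. Its _a_at probe set stood at log2 4.86, 5.52 and 4.16 under the minus lens, 5.52, 5.96 and 5.15 under the plus lens and 5.82, 5.52 and 5.60 in controls. Minus lens replicates 1 and 3 lay below every control and every plus lens array, while minus lens replicate 2 was level with the lowest control. The means were 4.85 ± 0.68 with the minus lens, 5.55 ± 0.41 with the plus lens and 5.64 ± 0.15 in controls (SD, n = 3 each). The minus lens differed from control by log2 -0.80 (SE 0.33, interval -1.55 to -0.04), a 1.74-fold lower level, with an unadjusted p of 0.0418 and a limma adjusted p = 0.683. Without minus lens replicate 3, the least typical array, the difference was -0.45, and with arrays weighted by quality it was -0.46. Without minus lens replicate 2 it was -1.13 (limma adjusted p = 0.426, the smallest of any setting).

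The minus lens differed from the plus lens by -0.70 for BMP7 (SE 0.33, interval -1.45 to 0.06, limma adjusted p = 0.721), and by -0.35 without minus lens replicate 3. The plus lens and control means of BMP7 differed by -0.10 (SE 0.33, interval -0.86 to 0.66, limma adjusted p = 0.9998), less than the spread within the plus lens group, and by 0.10 without plus lens replicate 3. A second BMP7 probe set, with the suffix _at, lay below the floor on 8 arrays and reached 4.04 on minus lens replicate 3, the array with the lowest value of the first. At that level it neither shows the pattern of the first nor bears on it. Its group means were 3.73 ± 0.27 with the minus lens, 3.58 ± 0.07 with the plus lens and 3.54 ± 0.17 in controls. Across the 9 arrays the 2 probe sets had a Pearson r of -0.68, given as a description, with the arrays' own brightness shared between them. The last BMP7 probe set (_s_at) lay at 2.62 to 2.69 on all arrays.

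Marker lists were read beside these values, and their part in the BMP7 values was not tested. Between minus lens and control, 0 of 20 amacrine, 0 of 11 bipolar, 0 of 14 Müller glia and 0 of 6 pigment epithelium markers passed. Over all 7130 genes 0.0140% did, and the smallest limma adjusted p of the 4 lists was 0.650, 0.0584, 0.662 and 0.705. At an unadjusted limma p under 0.05 there were 2, 6, 1 and 0 markers, against 7.18% of all genes. Groups did not overlap for 30.0%, 45.5%, 7.14% and 33.3% of the markers in these lists, against 10.3% of all genes. The 6 such amacrine markers were all lower with the minus lens and the 5 bipolar ones all higher. The mean of the 20 measured amacrine markers, relative to the control mean, was -0.22, -0.09 and -0.32 under the minus lens (replicates 1, 2 and 3), -0.07 to 0.03 under the plus lens and -0.11 to 0.06 in controls. Among minus lens arrays it thus ran in the same order as BMP7, highest on replicate 2 and lowest on replicate 3. The mean of the 4 other receptors and co-receptors of the pathway, described below, also followed it (-0.14, -0.07 and -0.63). The reverse order was seen for pigment epithelium markers (0.41, -0.26 and 0.53) and for endothelial, pericyte and blood markers (0.28, 0.26 and 0.38). It was also seen for 3 horizontal cell markers (-0.14, -0.51 and -0.04), of which CALB1 and ISL1 are in the amacrine list too. The means of bipolar and Müller glia markers ran in neither order. An order of 3 arrays is easily shared by accident, and no such match was tested. The mean of the 11 bipolar markers was 0.37 to 0.55 under the minus lens, 0.03 to 0.08 under the plus lens and -0.05 to 0.06 in controls. The 14 Müller glia markers gave -0.17 to 0.25, -0.41 to -0.21 and -0.10 to 0.07 in the same order of groups, and the 6 of the pigment epithelium, a known site of BMP expression in chicks, gave -0.26 to 0.53, -0.25 to 0.38 and -0.41 to 0.34.

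TGFB2, a TGF-beta isoform found widely in the eye, was the steadiest of the 5 in absolute terms. Its single probe set stood at log2 6.93, 6.94 and 7.25 under the minus lens, 6.94, 6.88 and 6.83 under the plus lens and 6.74, 7.07 and 6.84 in controls. Minus lens replicate 3 was the highest and the other 8 arrays lay within the range of the controls. The means were 7.04 ± 0.18 with the minus lens, 6.89 ± 0.06 with the plus lens and 6.88 ± 0.17 in controls (SD, n = 3 each). Relative to control, the minus lens mean of TGFB2 differed by log2 0.16 (SE 0.15, interval -0.17 to 0.49, limma adjusted p = 0.814) and by 0.05 without minus lens replicate 3. It differed from the plus lens by 0.16 (SE 0.15, interval -0.18 to 0.49, limma adjusted p = 0.812), and by 0.05 without that array. The plus lens and control means differed by 0.0027 (SE 0.15, interval -0.33 to 0.33, limma adjusted p = 0.9998), an interval that holds changes of up to 1.26-fold either way. Its residual SD within groups was 0.15, and 19.5% of tested probe sets had a smaller one.

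TGFB3, the isoform known in mammals for its part in palate fusion, was read by an _s_at probe set, and whether transcripts of another gene add to its signal was not tested. It stood at log2 7.32, 7.38 and 7.25 under the minus lens, 7.32, 7.79 and 7.18 under the plus lens and 7.34, 7.72 and 7.79 in controls. The minus lens arrays were close together, and 2 of the 3 lay below every control. The plus lens and control arrays spread more widely, and both groups reached 7.79. The means were 7.32 ± 0.06 with the minus lens, 7.43 ± 0.32 with the plus lens and 7.62 ± 0.24 in controls (SD, n = 3 each). For TGFB3 the minus lens differed from control by log2 -0.30 (SE 0.19, interval -0.73 to 0.13, limma adjusted p = 0.759) and kept that sign without any 1 array (-0.44 to -0.21). The plus lens differed from control by -0.19 (SE 0.19, interval -0.62 to 0.24, limma adjusted p = 0.9998), by -0.37 without plus lens replicate 2 and by -0.06 without plus lens replicate 3. The lenses differed by -0.11 (SE 0.19, interval -0.54 to 0.32, limma adjusted p = 0.899), and by 0.07 without plus lens replicate 2. The second TGFB3 probe set lay at 3.05 to 3.58, below the floor on all arrays, with a Pearson r of -0.11 against the first over the 9 arrays.

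BMPR1B, a type I BMP receptor known from limb and cartilage development in chicks, was the 1 receptor gene above the floor. Its single probe set stood at log2 4.79, 4.23 and 5.19 under the minus lens, 4.86, 6.37 and 4.62 under the plus lens and 4.80, 4.44 and 4.80 in controls. Plus lens replicate 2 stood alone above all others, and the remaining arrays lay between 4.23 and 5.19. The means were 4.74 ± 0.48 with the minus lens, 5.28 ± 0.95 with the plus lens and 4.68 ± 0.21 in controls (SD, n = 3 each). BMPR1B differed between plus lens and control by log2 0.61 (SE 0.44, interval -0.39 to 1.60, limma adjusted p = 0.9998), and by 0.06 without plus lens replicate 2. The minus lens differed from the plus lens by -0.55 (SE 0.44, interval -1.54 to 0.44, limma adjusted p = 0.791), and by -0.01 without that array. The minus lens differed from control by 0.06 (SE 0.44, interval -0.94 to 1.05, limma adjusted p = 0.984), and by -0.17 without minus lens replicate 3. The residual SD of BMPR1B was 0.63, the largest of the 5. Relative to control, its interval reaches 2.07-fold upward and 1.91-fold downward for the minus lens. For the plus lens it reaches 3.03-fold upward and 1.31-fold downward.

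**Figure D2:**
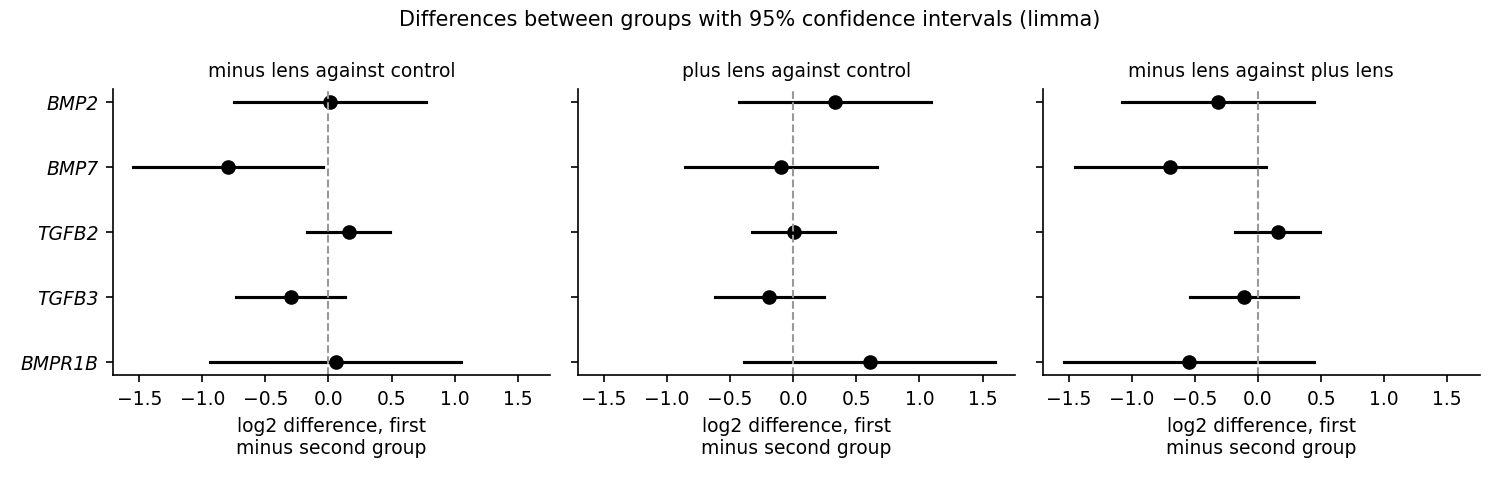
Log2 difference between group means (points, horizontal axis) with 95% confidence intervals (lines) from limma for the 5 probe sets above the floor, in 3 comparisons. Differences are the first named group minus the second. Every interval spans 0 except that of BMP7 for the minus lens against control (-1.55 to -0.04), whose adjusted p was 0.683, and the intervals of BMPR1B are the widest.

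The residual SD, the spread within groups after the means are removed, ran from 0.15 to 0.63 over the 5 genes, around a median of 0.24 for all tested probe sets. It was 0.47 for BMP2 and 0.47 for BMP7, larger than that of 88.4% and 87.9% of tested probe sets, and 0.23 for TGFB3, larger than that of 48.0%. The 3 genes with the wide spread were also those whose values came close to the floor, between log2 3.94 and 6.37. Both lens comparisons use the same 3 control arrays, so the lens differences from control are not independent of each other.

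The arrangement of groups by mean differed from gene to gene. For BMP2 and BMPR1B the plus lens mean was the highest, though within 0.06 of control without 1 plus lens array, and the minus lens and control means differed by less than the spread between replicates. For BMP7 and TGFB3 the order was control, plus lens and then minus lens from high to low, and for TGFB2 the minus lens mean was the highest. Plus lens means lay within 1 SD of the control mean for BMP2, BMP7, TGFB2 and TGFB3. Across the 9 arrays the genes did not follow a shared profile: Pearson r between pairs of the 5 ran from -0.72 for BMP7 with TGFB2 to 0.57 for BMP7 with TGFB3, as a description over arrays that share normalisation and groups.

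For the 10 probe sets that did not reach the floor, group means differed by at most 0.19. They comprise all 3 of BMP4, 2 of BMP2, 2 of BMP7 and 1 each of TGFB3, BMPR1A and BMPR2. BMP4, a ligand that patterns the dorsal retina in chick embryos, stood at 2.71 to 2.82, 2.40 to 2.46 and 1.91 to 1.98 on its 3 probe sets over the 9 arrays. BMPR1A, the other type I receptor, stood at 2.78, 2.80 and 2.85 under the minus lens, 2.80, 2.96 and 2.79 under the plus lens and 2.83, 2.76 and 2.80 in controls. Its highest value was on plus lens replicate 2, the array that was also highest for BMPR1B.

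BMPR2, a type II receptor for BMPs, lay just outside the floor and was almost constant. It stood at 3.90, 3.88 and 3.67 under the minus lens, 3.89, 3.88 and 3.88 under the plus lens and 3.88, 3.88 and 3.87 in controls. Minus lens replicate 3 was the single array to depart from the rest. Just inside the floor was BMP2, with its lowest array at 3.94.

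**Figure D3:**
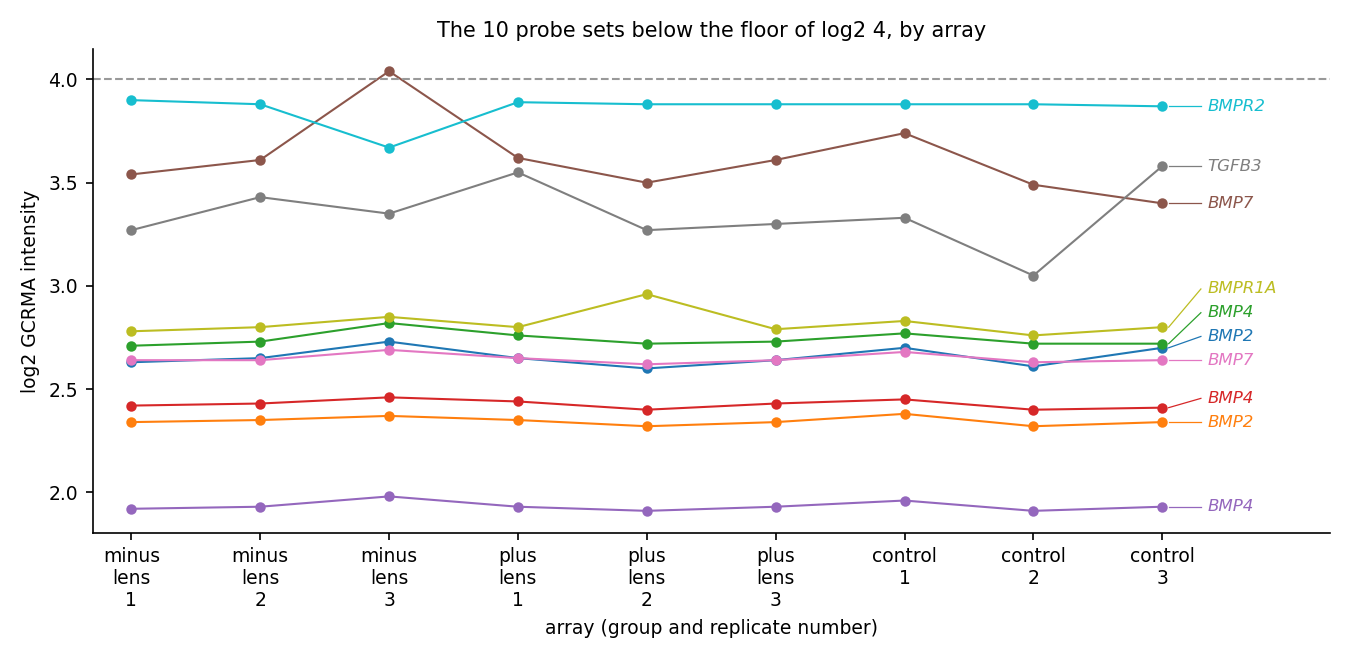
Log2 GCRMA intensity (vertical axis) of the 10 probe sets that did not reach the floor, by array (horizontal axis, group and replicate number); lines join the values of a probe set and the dashed line marks log2 4. The 7 dimmest range over at most 0.2 across all 9 arrays, 5 of them highest on minus lens replicate 3, and 1 value, of BMP7 on minus lens replicate 3, reaches 4.04.

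Group means of these 10 differed by -0.06 to 0.19 between minus lens and control, by -0.04 to 0.05 between plus lens and control and by -0.07 to 0.15 between the lenses. The largest of these was the second BMP7 probe set. Their range over the 9 arrays was 0.05 to 0.64, with a median of 0.12, and 7 of the 10 never reached log2 3. Of the 10, 6 were highest on minus lens replicate 3, the array on which the median of all chicken probe sets below the floor was also highest (2.67, against 2.58 to 2.64 on the others). When all 37693 chicken probe sets were tested without a floor, 0 of the 15 passed in any comparison (smallest limma adjusted p = 0.962, 0.9999 and 0.872 for minus lens against control, plus lens against control and minus lens against plus lens). A value at this level shows only that the probe set was not above the floor, and a change in the RNA would be compressed.

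The genes whose profiles were most like each member were found by Pearson r over the 9 arrays among 9977 tested probe sets with a single symbol. With so many candidates and 9 points, high values arise readily, and they are given as a description. For BMPR1B the first was CCN2 (r = 0.946), which encodes connective tissue growth factor, a secreted protein known to be induced by TGF-beta. CCN2 stood at log2 7.51 on plus lens replicate 2, against 6.43 to 6.80 on the other 8 arrays, so the likeness rests on the array that was also highest for BMPR1B. SURF2 (0.940) and COMMD9 (0.940) followed, with SURF2 almost constant at 4.96 to 5.08 over the 9 arrays.

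For TGFB3 the leading profiles were SPRY1 (r = 0.969), an inhibitor of receptor tyrosine kinase signalling, the chemokine receptor CXCR4 (0.951) and EPM2A (0.934). Like TGFB3, SPRY1 was high on plus lens replicate 2 and control replicates 2 and 3 (4.95 to 5.09), and stood at 4.03 to 4.47 on the other arrays. For BMP7 they were SEMA4G (0.973), the calcium pump ATP2B2 (0.970) and TACC1 (0.965), each lowest on minus lens replicate 3. For TGFB2 they were KRIT1 (0.959), the secreted Wnt modulator DKK3 (0.932) and the tumour necrosis factor receptor TNFRSF1A (0.921), each highest on that same array. For BMP2 they were TSPAN12 (0.914), MTCL1 (0.907) and NUDT14 (0.900). The values of TSPAN12 (3.77 to 4.27) and CXCR4 (3.05 to 5.75) lay partly below the floor.

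The rest of the pathway was read through 8 lists of other genes, with 1 probe set a gene, that with the highest mean. Of 169 genes listed, 61 were measured, and 0 passed in either direction for the minus lens against control (0.0140% of 7130 genes did), 0 for the plus lens against control (0.0421%) and 0 for the minus lens against the plus lens (0.0140%). The smallest limma adjusted p in the 3 comparisons was 0.691, 0.9997 and 0.639. At an unadjusted p under 0.05 there were 1, 2 and 2 genes (1.64%, 3.28% and 3.28%), against 7.18%, 1.94% and 7.34% of all genes. Groups did not overlap for 4, 5 and 3 of the 61 (6.56%, 8.20% and 4.92%), against 10.3%, 6.96% and 10.1% of all genes. The median log2 difference was -0.13, -0.02 and -0.05, against -0.03, 0.0015 and -0.02 over all 7130 genes.

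**Figure D4:**
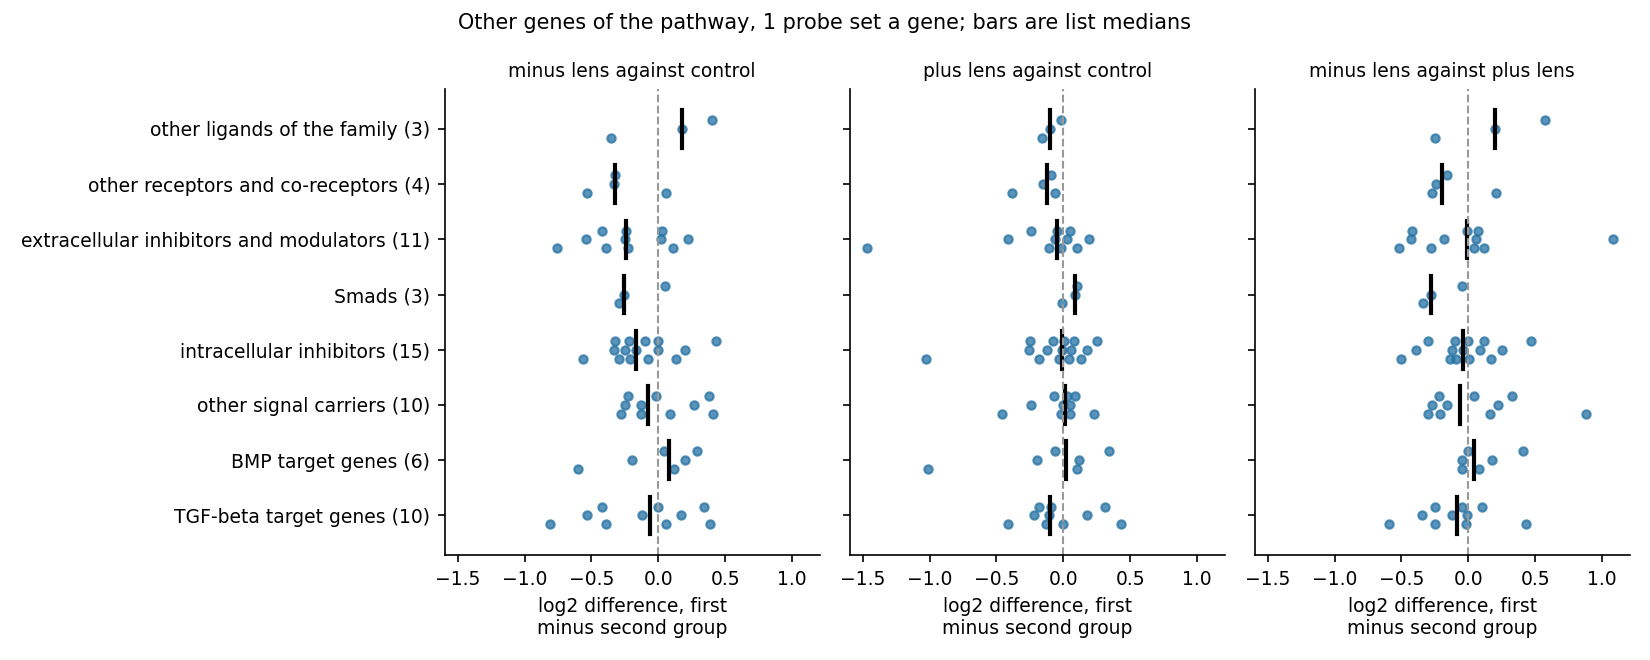
Log2 difference (horizontal axis, first group minus second) of each measured gene (points) of 8 pathway lists, with list medians as bars and the number of measured genes in brackets, in 3 comparisons. Most points lie within 0.5 of 0, and CHRDL1, SKIL and MSX2 reach -1.47, -1.03 and -1.01 for the plus lens against control.

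Among other ligands, 3 of 17 with a probe set were measured: BMP5 and the activin subunits INHBA and INHBB. INHBA differed by log2 0.40 (SE 0.36) between minus lens and control, where minus lens replicate 3 stood at 9.08 and the other 8 arrays at 7.31 to 8.12, and by -0.02 without that array. In the same comparison INHBB differed by -0.35 (SE 0.19) and BMP5, read close to the floor, by 0.18, or -0.0005 without minus lens replicate 3. A second, dimmer tested probe set gave 0.41 for INHBA and another -0.23 for INHBB (limma adjusted p = 0.759 and 0.819). Among other receptors, 4 of 12 were measured, namely the activin type II receptors ACVR2A and ACVR2B, the TGF-beta type I receptor TGFBR1 and the co-receptor NEO1. TGFBR1 had the largest difference, -0.53 (SE 0.40) for the minus lens against control, with 3.50 on minus lens replicate 3 and 4.59 to 5.35 elsewhere, and was -0.02 without that array. It was read close to the floor, with means of 4.53 under the minus lens and 5.07 in controls. ACVR2A and NEO1 gave -0.33 and -0.32 in that comparison, and ACVR2A -0.05 without minus lens replicate 3. A second NEO1 probe set, also well above the floor (means of 7.84 and 7.80), gave 0.04. TGFBR2 lay below the floor, so a pair of TGFBR1 and TGFBR2 was not read above it. The type II receptors ACVR2A and ACVR2B stood well above it, with group means of 9.91 to 10.24 and 8.04 to 8.26. None of these 7 genes passed, and their groups overlapped in every comparison.

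Of the extracellular inhibitors and modulators, which bind ligands or release them, 11 of 27 were measured. CHRDL1, a BMP antagonist of the chordin family, stood at log2 7.64, 4.96 and 6.10 under the minus lens, 4.24, 5.53 and 5.69 under the plus lens and 7.11, 5.34 and 7.43 in controls. It varied by more than 2 units within both the minus lens and the control group, and its plus lens difference from control of -1.47 (SE 0.75) did not pass. CRIM1, which binds BMPs at the cell surface, had minus lens values (10.35, 10.15 and 9.72) that all lay below its plus lens values (10.58, 10.38 and 10.53), a difference of -0.43 (SE 0.16, limma adjusted p = 0.639) that was -0.25 without minus lens replicate 3, and a second CRIM1 probe set gave -0.31. For the minus lens against control NBL1, close to the floor (means of 4.24 and 4.78), gave -0.54 (SE 0.30), or -0.34 without minus lens replicate 3. NOG, the antagonist noggin, also close to the floor (4.18 and 4.42), gave -0.24, or 0.06 without minus lens replicate 1. The largest difference of the 11 in that comparison was that of TWSG1, -0.76 (SE 0.43, limma adjusted p = 0.746). It stood at 8.94 on minus lens replicate 3 and at 10.12 to 11.10 on the other arrays.

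Of the Smads, the BMP-responsive SMAD1 and the TGF-beta-responsive SMAD2 and SMAD3 were measured, 3 of 5. SMAD3 had lower values on all minus lens arrays (6.46, 6.33 and 6.32) than on all plus lens arrays (6.54, 7.07 and 6.53), a difference of -0.34 (SE 0.19, limma adjusted p = 0.722) that was -0.16 without plus lens replicate 2. In that comparison SMAD2 gave -0.28, or 0.06 without minus lens replicate 1 (8.07, against 8.91 to 9.20 on the other 8 arrays), and SMAD1 -0.05, or 0.06 without plus lens replicate 2. Of the intracellular inhibitors 15 of 17 were measured. SKIL, a repressor of Smads that TGF-beta is known to regulate, was lower than every control on all minus lens arrays (6.81, 6.28 and 6.69) and all plus lens arrays (6.87, 4.94 and 6.58), with controls at 7.24, 6.96 and 7.28. Its differences from those shared controls were -0.56 and -1.03 (SE 0.44 each, limma adjusted p = 0.794 and 0.9997), and the second was -0.43 without plus lens replicate 2. Of its other tested probe sets, 1 gave -0.41 and -0.75 and the other, at the floor, -0.04 and -0.11. FKBP1A and NEDD4L, next by p, gave 0.43 (SE 0.20) and -0.25 (SE 0.24) for the minus lens against control. Leaving out 1 minus lens array brought FKBP1A to 0.27 (replicate 2) and NEDD4L to -0.02 (replicate 1). The other tested NEDD4L probe sets gave -0.17, -0.57 and -1.03 with all arrays (limma adjusted p = 0.931, 0.749 and 0.683), the last of them close to the floor.

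Of the signal carriers 10 of 16 were measured. Among them, the actin regulator kinase LIMK2 did not overlap between the lenses, with 6.75, 6.77 and 7.73 under the minus lens and 6.09, 5.98 and 6.54 under the plus lens (difference 0.88, SE 0.30, limma adjusted p = 0.639, or 0.55 without minus lens replicate 3). The co-activator EP300 gave 0.33 and the Smad-binding repressor ZEB2 -0.27 in that comparison, or -0.16 for ZEB2 without minus lens replicate 3. Another tested probe set of each, close to the floor, gave -0.11 for EP300 and 0.25 for ZEB2. Between minus lens and control the groups did not overlap for EP300 (0.38, limma adjusted p = 0.691) or ZEB2 (-0.28, limma adjusted p = 0.710). There the probe sets close to the floor gave -0.26 for EP300, the opposite sign, and -0.06 for ZEB2 (limma adjusted p = 0.801 and 0.952). Of 14 BMP target genes with a probe set 6 were measured, among them ID2 and ID4, with ID1 and ID3 below the floor. MSX2, a homeobox gene induced by BMPs, stood at log2 5.64, 5.72 and 7.28 under the minus lens, 5.73, 5.84 and 5.85 under the plus lens and 7.08, 6.44 and 6.93 in controls. All plus lens arrays and 2 minus lens arrays lay below every control, and minus lens replicate 3 lay above them. The plus lens difference of MSX2 was -1.01 (SE 0.40, limma adjusted p = 0.9997) and the minus lens difference -0.60 (SE 0.40, limma adjusted p = 0.767), or -1.14 without minus lens replicate 3. TBX5 and HEY1, next by p, gave 0.34 and -0.06 for the plus lens against control, and HEY1 0.02 without plus lens replicate 3. The plus lens values of TBX5 (5.31, 5.48 and 5.37) all lay above its controls (4.99, 5.27 and 4.89, limma adjusted p = 0.9997). HEY1 gave 0.12 for the minus lens against control and 0.18 against the plus lens (limma adjusted p = 0.848 and 0.774).

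Of 20 TGF-beta target genes with a probe set 10 were measured, and 0 passed. TIMP3, an inhibitor of matrix proteases, gave 0.43 (SE 0.23), KLF11 -0.25 (SE 0.21) and BHLHE40 -0.59 (SE 0.45) for the minus lens against the plus lens. Without minus lens replicate 3, TIMP3 gave 0.19 and BHLHE40 -0.21, and BHLHE40 gave -0.19 without plus lens replicate 2. A second KLF11 probe set passed in the fit to all probe sets (-1.60, limma adjusted p = 0.0246), with means of 5.02 with the minus lens and 6.62 with the plus lens, and 5.70 in controls. It passed under 4 of 18 alternatives, over which it ran from -1.68 to -1.24 with limma adjusted p = 0.0160 to 0.187, and it missed the threshold whenever 1 minus lens or plus lens array was left out. KLF11 is a zinc finger repressor first known as a TGF-beta-inducible gene. CCN2 gave -0.25 between the lenses, or 0.07 without plus lens replicate 2, its highest array.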

How the data were processed

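The authors deposited linear GCRMA intensity values, 1 for each probe set on each array; the tool is named in the submitters' processing notes, its version is not given in the sources used here, and the linear scale was read from the values. Per the labels' protocols, 10 to 100 ng of total RNA from sections 10 µm thick went through 2 cycles of amplification. GCRMA removes shifts in total RNA and compresses dim signals.

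Log2 was taken without a pseudocount. Of 38535 probe sets, 37693 chicken ones were kept and the 12975 at log2 4 or above on at least 3 of 9 arrays were tested. Symbols came from the platform annotation, and the Entrez numbers of all 15 member probe sets occur in RefSeq's gene list. Group means were compared in limma 3.58.1 under R 4.3.3 (lmFit, eBayes with intensity trend, all 9 arrays, 6 residual degrees of freedom, two-sided), with Benjamini-Hochberg adjustment. At the median over probe sets, the standard error of a log2 difference was 0.19; the number of arrays limits the precision. Pathway genes were read from a second fit to 7130 genes with 1 probe set each.

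The members and gene lists were chosen with earlier results of these data known. All member probe sets are described. From each pathway list the 3 genes with the smallest F test p are named, and any that passed. Other named genes (ACVR2B, NOG, TWSG1, SMAD1, ID2, ID4, CCN2 in its list, the second KLF11 probe set and genes below the floor) were chosen after their values were seen. Likeness is the 3 highest Pearson r per member. The code was tested on simulated data. Alternatives were filters, normalisations, a pseudocount, array weights, a replicate block, smaller fits and leaving out each array; those for pathway genes and the second KLF11 probe set were added after seeing the data.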

Additional observations from a re-analysis of the deposited data

How the results depend on the processing

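None of the BMP and TGF-beta probe sets passed in a pairwise comparison under the 19 alternatives run (smallest adjusted p 0.426), nor in the F test, which was not run on the 6 arrays of a pair alone. No label says whether replicate numbers pair the samples, and the values could not settle it. Deviations from group means correlated at -0.06 to 0.16 over 9 same-numbered pairs, 2 of them over 0.1. Pairs with different numbers gave -0.15 to 0.14. Arrays matched their own number best in 8 of 18 cases, and with 3 arrays a group a weak pairing could be missed. With the replicate block the count of calls was 0, as in the fit without it. Of 276 recomputed log2 differences of the 5 tested ligands and receptors, 262 kept their sign and 14 changed it. As none of the 276 passed, these counts do not show how a passing difference would hold. BMP2 for the minus lens against control was -0.01 with a pseudocount of 16 and -0.28 to 0.26 without each array in turn. BMPR1B in that comparison was -0.20 with arrayWeights and -0.17 to 0.31 without each array. For the plus lens against control, TGFB2 was -0.0049 after quantile normalisation, -0.0032 after median centring and -0.07 to 0.10 without each array, and BMP7 was -0.31 to 0.10. TGFB3 between the lenses was -0.24 to 0.07 without each array. Among other pathway genes, leaving out each array, chosen after seeing the data, gave -0.02 to 0.66 for INHBA, -0.0005 to 0.28 for BMP5 and -0.48 to 0.06 for NOG (minus lens against control), -0.10 to 0.02 for HEY1 (plus lens against control), and -0.51 to 0.06 for SMAD2, -0.11 to 0.06 for SMAD1 and -0.42 to 0.07 for CCN2 (minus lens against plus lens). The median over the tested members for the minus lens against control was -0.20 with arrayWeights and -0.21 to 0.04 without each array. Between the lenses it was 0.02 with no filter (15 probe sets), 0.02 with the filter at log2 6 (2 probe sets) and -0.51 to -0.01 without each array. The number of probe sets at the floor was 3 at log2 5 and 2 at log2 6, fewer by construction. With 3 arrays a group, signals close to the GCRMA floor limit what could be seen for BMP2, BMP7 and BMPR1B, and differences of BMP4, BMPR1A and BMPR2 could not be read.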
